A study of Homo sapiens with 4 samples.

Results

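The 10 genes described here mark the epithelial and the mesenchymal state of a cell: CDH1, EPCAM, CDH2, VIM, FN1, ZEB1, ZEB2, SNAI1, SNAI2 and TWIST1. They are 10 of the 19689 protein-coding genes of GENCODE release 44 with an annotated transcription start site (TSS). They were chosen by name, with earlier results of these data known. Accessible chromatin was measured by ATAC-seq, in which a transposase cuts open chromatin and tags it for sequencing, in 2 lines of human prostate cancer cells. The parental line C4-2B is an adenocarcinoma line. Its derivative C4-2BER is neuroendocrine-like and resistant to enzalutamide, an inhibitor of androgen receptor signalling. It was derived by continuous exposure to the drug, and the study kept the drug in its culture. The 2 libraries of a line were pooled for peak calling, so there is 1 peak list per line and no replicate check of any difference below. C4-2BER is a single derived line, and the merged lists cannot separate the effect of the drug from other differences between the 2 lines. The depth was higher in C4-2B (30.2 M reads) than in C4-2BER (25.2 M).

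Epithelial cells are held together by E-cadherin (CDH1) and EpCAM (EPCAM) at their contacts. In the epithelial-mesenchymal transition these contacts loosen, N-cadherin (CDH2) can replace E-cadherin, and cells make more vimentin (VIM), an intermediate filament protein, and fibronectin (FN1), a protein of the extracellular matrix. The zinc finger factors ZEB1, ZEB2, SNAI1 (Snail) and SNAI2 (Slug) and the basic helix-loop-helix factor TWIST1 drive this programme, and the ZEB and SNAI factors repress CDH1 through E-boxes of the sequence CAGGTG. An accessible promoter is a condition for transcription and does not by itself measure it.

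For every gene, all intervals of both peak lists that overlapped the gene body or 50 kb either side were collected. An interval that overlapped the other list by 1 bp or more was shared, and any other was line-only. It was a promoter interval when it reached within 2000 bp of any coding TSS, and was otherwise distal. Its strength is given as the reads over its summit and as its rank percentile, its position when its list is sorted by −log10 p (100% is the strongest).

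The sequences behind the main findings are shown first, in lower case with motif matches in capitals. The CDH2 and ZEB1 promoters are shown because the first was covered by an interval at its canonical TSS in C4-2BER and not in C4-2B, and the second holds the E-box of the ZEB and SNAI factors. RefSeq lists 2 CDH2 and 7 ZEB1 promoters, and those at the canonical TSS are shown. CAGGTG was in 2 of the 7 ZEB1 promoters. The CDH2 promoter (chr18:28177101-28177380, minus strand) held none of the motifs searched, had a GC content of 66.4% and held 21 CpG. The ZEB1 promoter (chr10:31318966-31319154, plus strand) held the E-box CAGGTG at bases 9 (on the minus strand, read here as CACCTG) and 166. Both are RefSeq promoters (GRCh38.p14), cut where the transcript's untranslated region begins to fill the window. Of the 10 genes, 5 were matched in the RefSeq promoter table.
CDH2 promoter: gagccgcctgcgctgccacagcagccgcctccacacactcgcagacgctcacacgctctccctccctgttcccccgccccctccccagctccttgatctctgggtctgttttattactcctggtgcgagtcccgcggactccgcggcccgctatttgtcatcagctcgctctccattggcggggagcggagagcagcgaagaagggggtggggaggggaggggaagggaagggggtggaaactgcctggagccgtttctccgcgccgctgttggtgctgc
ZEB1 promoter: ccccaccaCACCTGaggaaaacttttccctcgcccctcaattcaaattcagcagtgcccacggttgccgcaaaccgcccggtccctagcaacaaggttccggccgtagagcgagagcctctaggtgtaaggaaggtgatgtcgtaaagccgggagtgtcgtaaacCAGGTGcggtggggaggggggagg

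The next sequences run 100 bases either side of the summits (hg38, plus strand) of line-only distal intervals. The strongest C4-2B-only distal interval of all 10 windows, 3′ of CDH2 (chr18:27923036-27923236), held a forkhead match (TGTTTAC) at base 83. The strongest C4-2BER-only one, inside ZEB2 (chr2:144461288-144461488), held a CAGGTG E-box on the minus strand at base 22. The strongest C4-2B-only one of the ZEB1 window (chr10:31574633-31574833) held an AP-1 match (TGACTCA, here on the minus strand) at base 116.
CDH2, C4-2B only: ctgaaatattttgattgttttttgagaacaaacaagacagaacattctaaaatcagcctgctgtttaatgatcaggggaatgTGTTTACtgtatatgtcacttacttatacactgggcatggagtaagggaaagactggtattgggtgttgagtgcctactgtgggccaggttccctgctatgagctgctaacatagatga
ZEB2, C4-2BER only: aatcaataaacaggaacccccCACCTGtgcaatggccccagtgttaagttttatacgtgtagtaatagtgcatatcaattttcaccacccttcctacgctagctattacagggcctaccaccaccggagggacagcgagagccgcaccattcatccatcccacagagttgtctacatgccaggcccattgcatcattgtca
ZEB1, C4-2B only: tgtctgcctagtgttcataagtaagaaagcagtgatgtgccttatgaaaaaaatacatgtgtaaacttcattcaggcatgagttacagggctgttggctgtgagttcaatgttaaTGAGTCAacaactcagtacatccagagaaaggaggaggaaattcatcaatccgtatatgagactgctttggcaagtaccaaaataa

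To understand how much accessible chromatin surrounds these genes, the intervals in their windows were counted. The windows span 1945 kb in all and held 103 C4-2B intervals and 89 C4-2BER intervals. The median window held 10.5 and 8 intervals, against 12 and 10 over the windows of all coding genes. The 10 windows were therefore no richer in intervals than those of the median gene.

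Of the 103 C4-2B intervals, 62 were shared and 41 (39.8%, Wilson 95% interval 30.9 to 49.5) were found in C4-2B only, against 37.7% of the whole C4-2B list. Of the 89 C4-2BER intervals, 67 were shared and 22 (24.7%, 95% interval 16.9 to 34.6) were found in C4-2BER only, against 20.8% of the whole C4-2BER list. Both shares have the share of their list inside the interval, which covers counting error only. Among distal intervals, 39 of 81 (48.1%, 95% interval 37.6 to 58.9) were C4-2B-only and 18 of 61 (29.5%, 95% interval 19.6 to 41.9) were C4-2BER-only, against 41.9% and 22.5% of the lists. Among intervals at the promoters of the 10 genes, 2 of 15 and 4 of 21 were line-only, against 16.2% and 13.6% of all promoter intervals. The promoters of other genes that lie in the windows gave 7 further intervals in each list, and all of them were shared. Line-only sites around these genes were thus mostly distal, as they were in the lists.

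Strong line-only intervals, with a −log10 q of at least 10, numbered 15 of the 103 in C4-2B and 3 of the 89 in C4-2BER, against 14.2% and 3.92% of the lists. The C4-2B-only ones were spread over 7 genes, namely CDH1, CDH2, ZEB2 and SNAI1 with 3 each and FN1, ZEB1 and SNAI2 with 1 each. All 3 C4-2BER-only ones were in the ZEB2 window. The ZEB2 window also held the most line-only intervals of the 10 in C4-2BER, with 10 of its 17. That number stood at percentile 99.4 of all coding genes. In C4-2B ZEB2 tied with CDH2 at 9, at percentile 93.0. These percentiles rank counts per window and are not corrected for its length, 257 kb at ZEB2 and 345 kb at CDH2. Per 100 kb, ZEB2 held 6.23 intervals in C4-2B and 6.62 in C4-2BER, and CDH2 held 3.77 and 2.03. The medians over coding genes were 7.83 and 6.39.

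**Figure D1:**
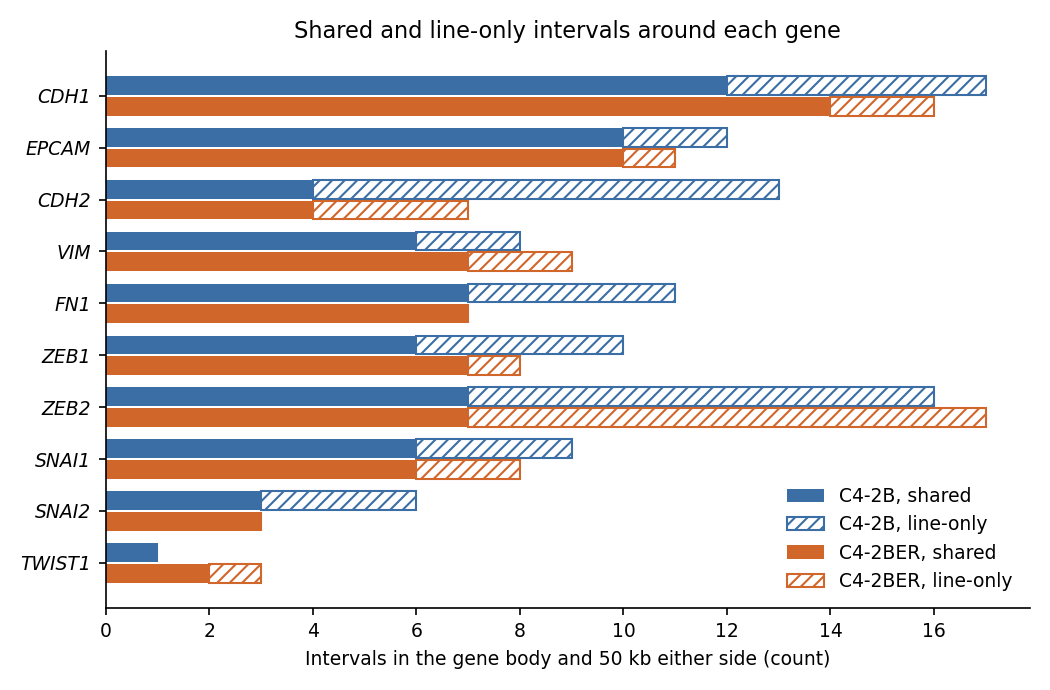
Number of intervals in the body of each gene and 50 kb either side, in C4-2B (blue) and C4-2BER (orange), with shared intervals filled and line-only intervals hatched. CDH2 had 13 intervals in C4-2B against 7 in C4-2BER, and of the 16 and 17 intervals of ZEB2, 9 and 10 were line-only.

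Next, the promoters were compared. All 10 genes had a promoter interval in both lists. Over all coding genes 77.7% had one in both lists, 3.39% in C4-2BER only, 2.83% in C4-2B only and 16.0% in neither. Among intervals with a −log10 q of at least 10, CDH2 and ZEB2 had a promoter interval in C4-2BER only, and with lists of equal length ZEB2 alone did. The share of all coding genes under these stricter settings was not counted, so these counts have no background. In the full lists the 10 genes therefore differed at their promoters in strength and breadth, and not in the presence of a listed interval. The rank percentile of the strongest promoter interval was higher in C4-2BER for 8 of the 10 genes, against 60.6% of the 15305 coding genes with an interval in both lists. The median change was 3.06 percentile points, against 0.588 over those genes. Both depend on the setting, with 4 of 8 genes higher and a median of 0.738 at a −log10 q of at least 10, and 6 of 10 and 0.501 when ranked by summit reads. With the canonical TSS only, 7 of 10 were higher and the median was 2.19. There EPCAM changed by −6.43 points in place of 2.61, and ZEB2 by 18.3 in place of 45.7. CDH2, ZEB2 and TWIST1 had the highest changes of the 10, and the 7 other genes changed by −2.53 (VIM) to 4.07 (FN1) points.

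**Figure D2:**
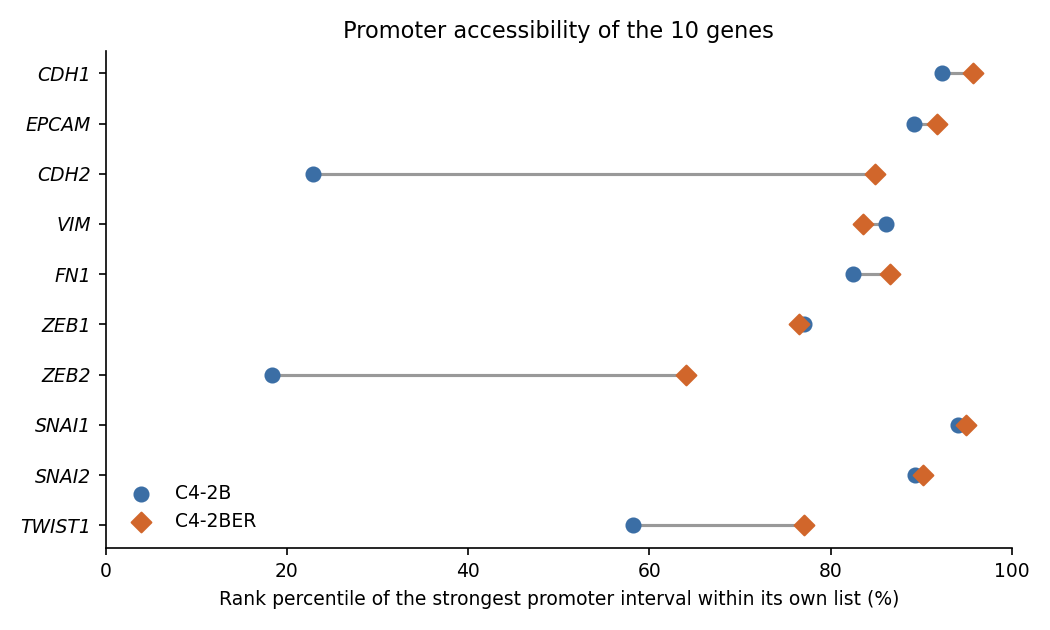
Rank percentile (x axis, %) of the strongest promoter interval of each gene within the C4-2B list (blue circles) and the C4-2BER list (orange diamonds), joined by a line. CDH2 moved from 22.9 to 84.9, ZEB2 from 18.4 to 64.1 and TWIST1 from 58.2 to 77.1, while the other genes lay at 76.5 or higher in both lists.

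The epithelial adhesion genes kept strong promoters. CDH1, which encodes E-cadherin (chr16:68737292-68835537, plus strand), had 148 summit reads at its TSS in C4-2B and 141 in C4-2BER, at ranks 92.3 and 95.8. Scaled for depth, the ratio of C4-2BER to C4-2B was 1.14 (exact 95% interval 0.899 to 1.45, counting error only). The interval holds 1, so the CDH1 promoter did not differ beyond counting error. Downstream of it, at 1079 bp, a second promoter interval had 78 summit reads in C4-2B. C4-2BER had 2 weaker intervals over the same stretch, with 49 and 28 reads.

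The CDH1 window held the most C4-2B intervals of the 10, with 17 against 16 in C4-2BER. Of its 12 shared pairs, 2 were at least 2-fold lower in C4-2BER and none was 2-fold higher, with a median log2 ratio of −0.27. Of these 2, 1 was the interval at 1079 bp, which the rule of largest overlap paired with the C4-2BER interval of 28 reads. Against the interval of 49 reads, whose summit was 6 bp away, its ratio was 0.752, so that site was not 2-fold lower. The lowest pair lay 14777 bp upstream of CDH1, in an exon of the neighbouring gene CDH3 (P-cadherin), where the summit had 71 reads in C4-2B against 15 in C4-2BER, a ratio of 0.253 (0.134 to 0.445). Intervals in the introns of CDH1 at 7662 and 41401 bp held 141 and 125 C4-2B reads against 102 and 78 C4-2BER reads. Their depth-scaled ratios were 0.866 (0.664 to 1.12) and 0.747 (0.555 to 0.999), against a median of 0.834 over all distal pairs. The strongest C4-2B-only interval of the window was in an exon at the 3′ end of CDH1 (chr16:68834531-68834897), with 68 reads and a rank of 84.2. The ratio at the CDH1 TSS was thus near 1, while some sites around it were lower in C4-2BER or missing from its list.

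EPCAM, which encodes the epithelial cell adhesion molecule (chr2:47345158-47387601, plus strand), had 2 promoter intervals in each list. At the canonical TSS the summit had 95 reads in C4-2B against 59 in C4-2BER, a ratio of 0.743 (0.528 to 1.04). At an alternative coding TSS further upstream, the summit 24191 bp from the canonical TSS in C4-2B had 52 reads, and its C4-2BER partner had 80, a ratio of 1.84 (1.28 to 2.66). The rank of the strongest EPCAM interval, 89.2 in C4-2B and 91.8 in C4-2BER, therefore came from different TSSs. At the canonical TSS alone it was 89.2 and 82.7. The alternative TSS lies beside the start of EPCAM-DT, a divergent non-coding RNA, and the signal of the 2 starts cannot be told apart. Only 2 of 12 and 1 of 11 EPCAM intervals were line-only, and none was strong.

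Among the mesenchymal genes, CDH2 differed most. CDH2, which encodes N-cadherin (chr18:27932879-28177946, minus strand), had 2 weak promoter intervals in C4-2B, with 13 and 15 summit reads, 896 and 1329 bp upstream of the canonical TSS. C4-2BER had 1 interval of 1559 bp over the canonical TSS (chr18:28176683-28178241), with 87 summit reads, and a weak one of 26 reads at 675 bp downstream. No C4-2B interval covered that TSS, whose promoter sequence is shown above. The rank went from 22.9 to 84.9, a change of 62.0 points that stood at percentile 99.7 of the coding genes. The overlapping pair had a ratio of 8.01 (4.45 to 15.6), the highest of the 62 shared pairs, although its summits lay 730 bp apart.

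The distal sites of CDH2 tilted the other way, as distal sites did over the whole lists. Of 9 C4-2B-only intervals in its window, 8 were distal. These were 8 of its 11 distal C4-2B intervals, against 41.9% of all distal C4-2B intervals. The strongest of them lay past the 3′ end of the gene (chr18:27922747-27923460, forkhead sequence above), with 80 reads and a rank of 90.6. The lowest ratio of the 62 shared pairs was also here, 16444 bp upstream of the canonical TSS, where the summit had 40 reads in C4-2B against 8 in C4-2BER (0.239, 0.0967 to 0.518). A pair 277029 bp downstream of the TSS had 39 and 12 reads, a ratio of 0.368 (0.175 to 0.718). The remaining distal pair, 12449 bp upstream, had 29 and 19 reads, a ratio of 0.784 (0.415 to 1.45). Over all distal pairs 16.5% were at least 2-fold lower in C4-2BER, and whether CDH2 departs from this background was not tested. C4-2BER had 2 distal line-only intervals in the window, with 14 reads each.
The CDH2 window thus held a stronger and wider promoter interval in C4-2BER and fewer distal intervals, 5 against 11 in C4-2B.

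**Figure D3:**
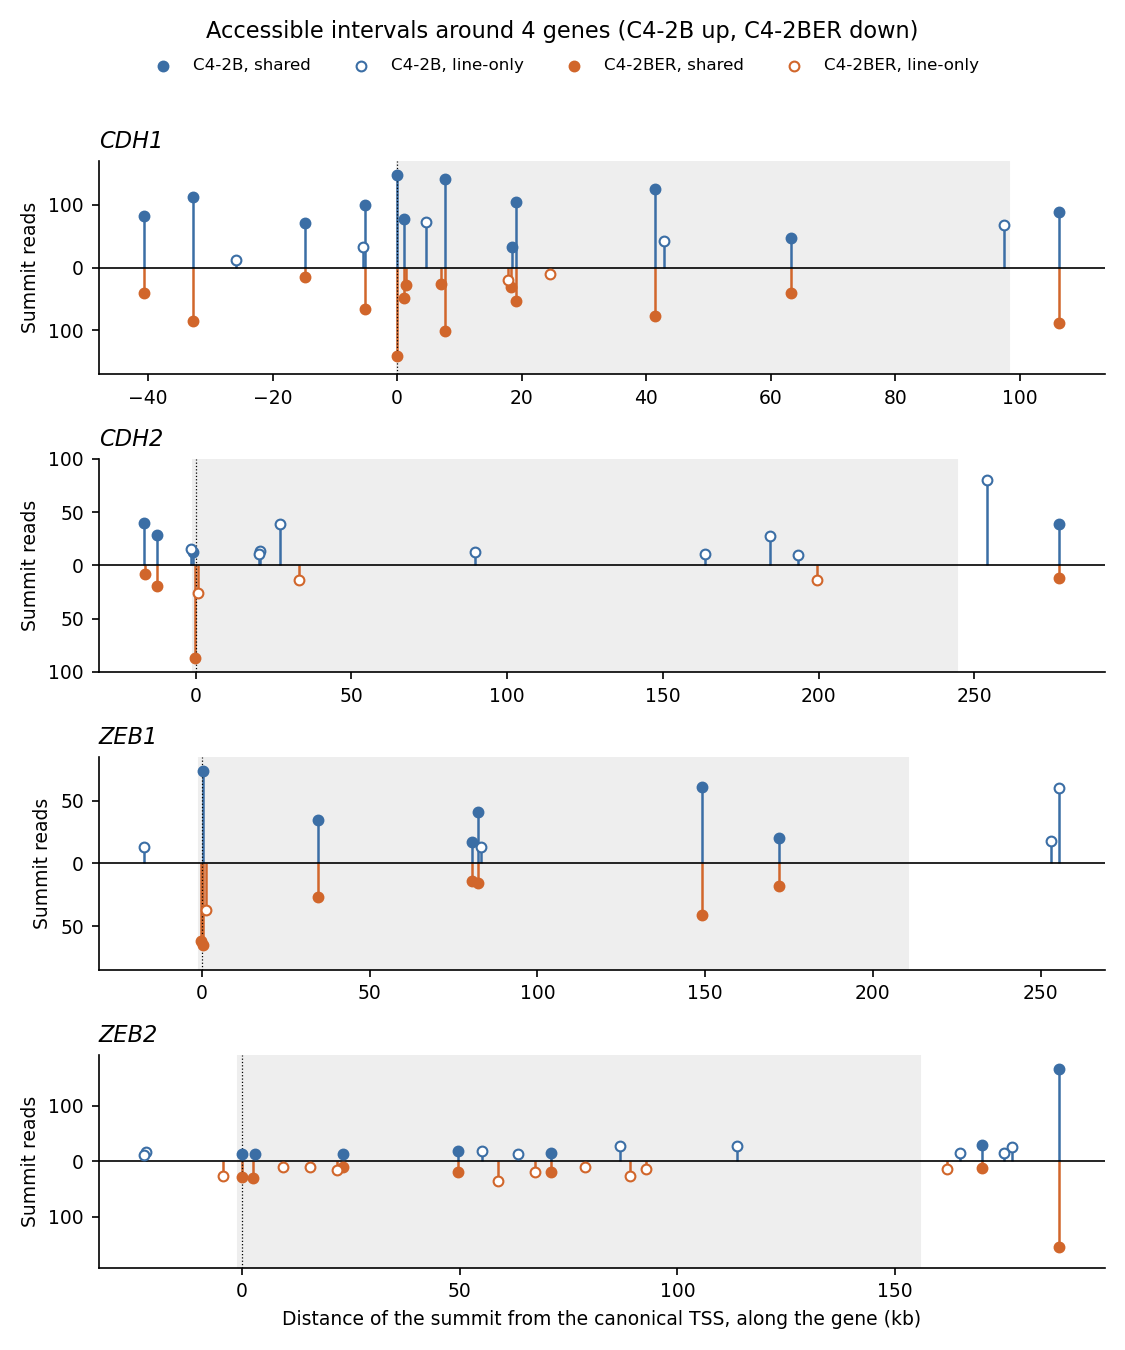
Intervals around CDH1, CDH2, ZEB1 and ZEB2 by the distance of their summit from the canonical TSS along the gene (x axis, kb) and their summit reads (y axis, not scaled for depth), with C4-2B drawn upward and C4-2BER downward, filled points for shared and open points for line-only intervals, and the gene body in grey. The CDH2 promoter has 13 and 15 reads drawn upward and 87 drawn downward, and the open C4-2B points of 80 reads past the end of CDH2 and 60 reads past the end of ZEB1 have no C4-2BER counterpart.

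VIM, which encodes vimentin (chr10:17228241-17237593, plus strand), had 109 summit reads at its strongest promoter interval in C4-2B and 95 in C4-2BER, a ratio of 1.04 (0.784 to 1.39). These summits lay 1930 and 2328 bp downstream of the canonical TSS, which no interval of either list covered. The rank of VIM was 86.1 and 83.6. The summit reads of VIM did not differ beyond counting error, but the promoter was covered more widely in C4-2BER. An added interval (chr10:17228406-17228900) lay 521 bp downstream of the canonical TSS in C4-2BER only, with 50 reads. The start of the antisense RNA VIM-AS1 lies in the same stretch, and the 2 cannot be told apart by accessibility. FN1, which encodes fibronectin (chr2:215360440-215436073, minus strand), had 83 and 70 reads at its promoter, a ratio of 1.01 (0.724 to 1.404), at ranks 82.5 and 86.5.

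Inside FN1 some sites were lower. At 3 shared intronic pairs the reads were 42 and 15, 40 and 15, and 35 and 12 in C4-2B and C4-2BER, with ratios of 0.427 (0.220 to 0.787), 0.449 (0.230 to 0.830) and 0.410 (0.194 to 0.809). FN1 had 4 C4-2B-only intervals, the strongest in an intron (chr2:215417459-215417793) with 37 reads and a rank of 51.0, and no C4-2BER-only interval. As at CDH1, the ratio at the FN1 promoter was near 1, and some intronic intervals were lower in C4-2BER or missing from its list. Over all distal pairs 16.5% were at least 2-fold lower in C4-2BER, and 41.9% of all distal C4-2B intervals were C4-2B-only. Whether these 2 genes depart from that background was not tested.

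The transcription factors were then compared. ZEB1 (chr10:31318495-31529814, plus strand), a repressor of CDH1, had 74 summit reads at its promoter in C4-2B and 65 in C4-2BER, both 323 bp downstream of the canonical TSS and at ranks 77.1 and 76.5. The depth-scaled ratio was 1.05 (0.741 to 1.49), so the ZEB1 promoter summit did not differ beyond counting error. The single C4-2B promoter interval was divided in C4-2BER into 2 intervals, and another one (chr10:31320242-31320504) with 37 reads lay 1141 bp downstream in C4-2BER only. ZEB1-AS1, an antisense RNA, starts in the same stretch. Of 6 shared pairs of ZEB1, 1 was at least 2-fold lower, an intronic pair 82263 bp downstream with 41 and 16 reads (0.467, 0.245 to 0.850). The strongest C4-2B-only interval lay past the 3′ end of ZEB1 (chr10:31574529-31575103, AP-1 sequence above), with 60 reads and a rank of 84.2.

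ZEB2 (chr2:144364364-144521057, minus strand), the second factor of the ZEB family, had weak promoter intervals in C4-2B and stronger ones in C4-2BER. At the canonical TSS the summit had 14 reads in C4-2B against 28 in C4-2BER, a ratio of 2.39 (1.22 to 4.92), at ranks 16.6 and 34.9. The neighbouring promoter pair, 2919 bp downstream, had 14 and 31 reads, a ratio of 2.65 (1.37 to 5.39). Neither 95% interval holds 1. ZEB2 has 31 annotated coding TSSs, and the strongest promoter interval of each list was a line-only one at an internal start, with 14 reads at 63310 bp in C4-2B and 26 reads at 89184 bp in C4-2BER (ranks 18.4 and 64.1). ZEB2-AS1 and other non-coding RNAs start beside the canonical TSS.

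Most distal intervals of ZEB2 were line-only in both lists. In C4-2B 8 of its 12 distal intervals were line-only, and in C4-2BER 9 of 13, against 41.9% and 22.5% of all distal intervals. The strongest C4-2BER-only interval lay inside the gene, 58731 bp from the canonical TSS (chr2:144461168-144461732, E-box sequence above), with 36 reads and a rank of 73.7. The strongest C4-2B-only intervals were intronic at 113756 and 86717 bp, with 27 reads each and a rank of 55.9. These sites were weaker than the promoters of CDH1 or SNAI1, and 7 of the 9 C4-2BER-only distal intervals of ZEB2 did not reach a −log10 q of 10.

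SNAI1 (chr20:49982980-49988886, plus strand), which encodes Snail, had a strong promoter in both lists, with 133 summit reads in C4-2B against 122 in C4-2BER at ranks 94.1 and 94.95, a ratio of 1.10 (0.851 to 1.41). A distal interval 36703 bp downstream was as strong, with 148 and 96 reads, a ratio of 0.776 (0.594 to 1.01). A weaker distal pair at 7406 bp had 20 and 33 reads (1.97, 1.10 to 3.63), the highest ratio of any distal pair of the 10 genes. The strongest C4-2B-only interval lay 25146 bp upstream (chr20:49957382-49958012), with 34 reads and a rank of 64.9.

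SNAI2 (chr8:48917598-48921740, minus strand), which encodes Slug, had 122 and 90 promoter reads at ranks 89.4 and 90.2, a ratio of 0.883 (0.665 to 1.17). All 3 of its C4-2BER intervals were shared, and 3 of its 6 C4-2B intervals were line-only, the strongest 24590 bp upstream (chr8:48945811-48946500) with 33 reads and a rank of 64.6. The promoters of both SNAI genes thus did not differ beyond counting error.

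TWIST1 (chr7:19020991-19117636, minus strand) had 1 interval in C4-2B and 3 in C4-2BER in its whole window, the fewest of the 10 genes in C4-2B. At its promoter the summit had 32 reads in C4-2B against 58 in C4-2BER, a ratio of 2.17 (1.39 to 3.45), and the rank went from 58.2 to 77.1. Ranked by the fold over the local background in place of −log10 p, TWIST1 went from 63.0 to 59.1. The direction of its rank therefore depends on the measure, since the background around TWIST1 was also higher in C4-2BER.

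The ratios of all shared pairs were then compared. Over the 62 pairs of the 10 windows, the median log2 ratio was −0.10, against −0.13 over all 93185 shared pairs. At least 2-fold lower in C4-2BER were 10 pairs (16.1%), against 13.6% of all pairs, and at least 2-fold higher were 4 (6.45%), against 3.84%. All 4 higher pairs were at promoters of the 10 genes, namely CDH2, TWIST1 and 2 of ZEB2. They were 4 of the 13 pairs at these promoters (30.8%), against 6.61% of all promoter pairs. Of the 10 lower pairs, 9 were distal, as were 12002 of the 12647 lower pairs of the whole lists. These 9 were 21.4% of the 42 distal pairs, against 16.5% of all distal pairs. The other lower pair was the downstream CDH1 promoter interval, which was not 2-fold lower when paired by the nearest summit. The summits of 3 of the 4 higher pairs lay apart, by 730 bp at CDH2, 465 bp at 1 ZEB2 pair and 381 bp at TWIST1. With summits required within 200 bp, 1 higher pair was left, at the canonical TSS of ZEB2. At a −log10 q of at least 10 also 1 was left, at TWIST1, so no higher pair was left under both settings. At that −log10 q, 0 pairs were 2-fold lower. The median of the 42 distal pairs, −0.27, was close to that of all distal pairs, −0.26, and the median of the 13 pairs at the genes' own promoters, 0.13, to that of all promoter pairs, 0.12. The windows thus followed the general tilt of the lists, in which distal pairs were lower and promoter pairs higher.

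**Figure D4:**
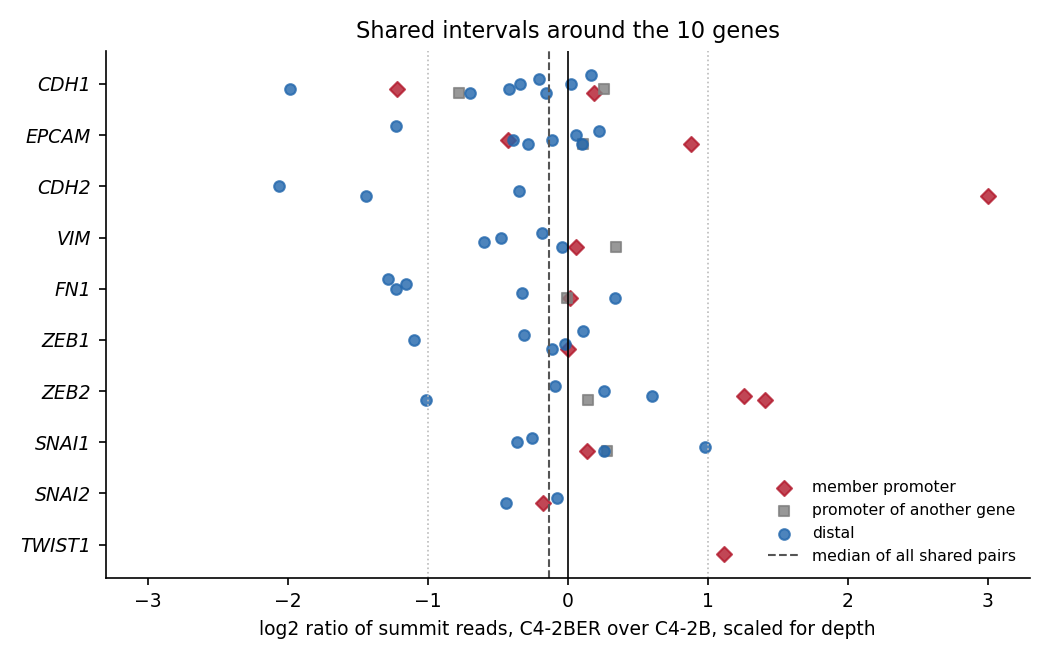
Depth-scaled log2 ratio of summit reads, C4-2BER over C4-2B (x axis), of each shared pair by gene, with diamonds for the gene's own promoter, squares for the promoter of another gene and circles for distal sites, the dashed line at the median of all shared pairs and dotted lines at a 2-fold ratio. The 4 points to the right of the upper 2-fold line are promoter pairs of CDH2, ZEB2 and TWIST1, and 9 of the 10 points to the left of the lower line are distal.

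Breadth was measured within 2000 bp of each canonical TSS, as the bases covered by intervals. At CDH2, 512 bp were covered in C4-2B and 1759 bp in C4-2BER. VIM went from 1000 to 1569 bp, TWIST1 from 1030 to 1524 bp, ZEB1 from 1624 to 1925 bp and ZEB2 from 275 to 471 bp. Of the 2 epithelial genes, CDH1 went from 1208 to 1375 bp and EPCAM from 1320 to 1302 bp. FN1 had 1156 and 1331 bp, and SNAI1 and SNAI2 were within 11 bp of their C4-2B values. The median change over the 10 genes was 185.5 bp, against 22 bp over the 15951 coding genes with an interval there.

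The local background of macs2, the mean signal over 10 kb around a summit or the genome-wide floor if that is higher, gives the wider signal free of depth when divided by the floor. At the CDH2 promoter it went from 1.00 in C4-2B, the lowest value possible, to 6.79 in C4-2BER. ZEB2 went from 1.03 to 3.70 and TWIST1 from 1.395 to 4.23. VIM went from 6.12 to 8.84 and ZEB1 from 4.06 to 5.59. SNAI2 went the other way, from 6.43 to 4.69. The ratio of the 2 lines had a median of 1.12 over 14624 coding genes, with 90% of them between 0.817 and 1.72, and CDH2 (6.79), ZEB2 (3.60) and TWIST1 (3.03) lay above that range and SNAI2 (0.729) below it. The other 6 genes lay inside it. The 10 kb include the promoter interval itself, so this is not a measure independent of its reads.

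**Figure D5:**
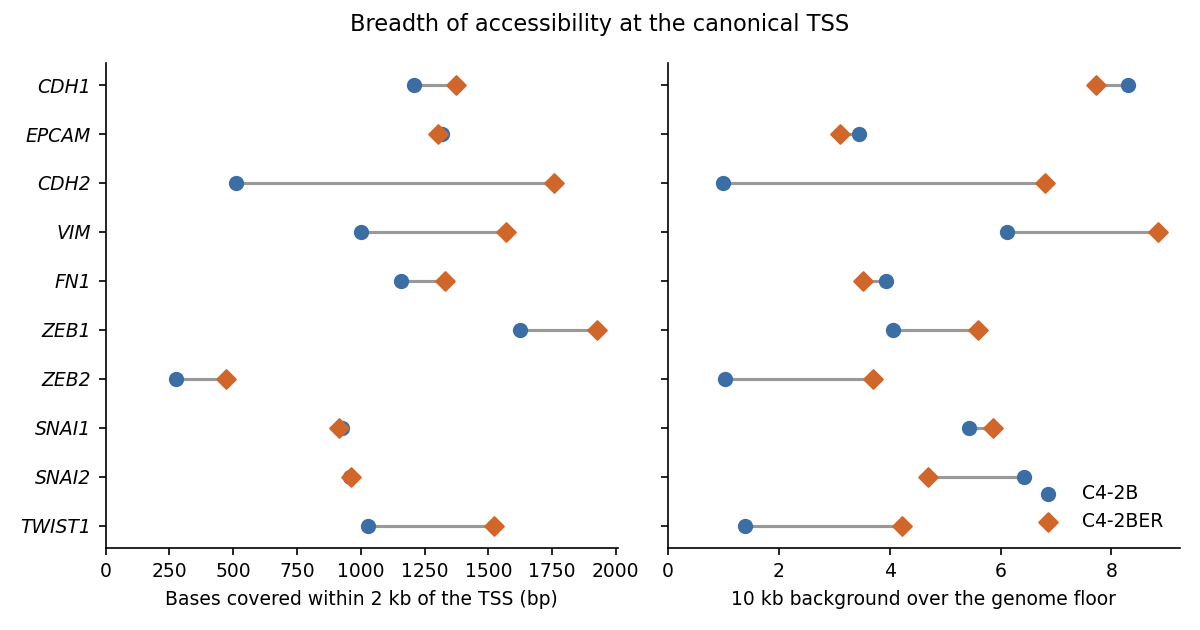
Bases covered by intervals within 2 kb of the canonical TSS (left, bp) and local 10 kb background over the genome floor (right, a ratio) for each gene in C4-2B (blue circles) and C4-2BER (orange diamonds). CDH2, VIM and TWIST1 have the longest lines on the left, and CDH2, ZEB2 and TWIST1 start between 1.00 and 1.395 on the right.

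Other genes of the 2 states were examined for comparison. All 26 further epithelial genes, among them tight junction claudins, the splicing regulators ESRP1 and ESRP2 and the factors GRHL1 and GRHL2, had a promoter interval in both lists, against 77.7% of all coding genes. Of them 16 had a higher rank in C4-2BER, near the 60.6% of all coding genes, with a median change of 1.11 points against 0.588, and the highest was 8.96 at CTNNB1 (β-catenin). RAB25, a small GTPase of epithelial cells, changed by −8.85 points. The epithelial list thus had listed promoter intervals in both lines and ranks that moved much as those of all genes.

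Of 27 further mesenchymal genes, 22 had a promoter interval in both lists, 2 in C4-2BER only (TWIST2 and FOXC2), 1 in C4-2B only (MMP2) and 2 in neither (SPARC and POSTN). Over all coding genes the shares were 77.7%, 3.39%, 2.83% and 16.0%. Of the 22, 13 had a higher rank in C4-2BER, near the 60.6% of all coding genes, and the median change was 1.56 points against 0.588. Single genes differed widely. TGFBR2, a TGF-β receptor, changed by 38.3 points, CD44, a hyaluronan receptor, by 35.3, the ligand TGFB1 by 28.6 and the homeobox factor PRRX1 by 22.7, whereas the actin-binding gene TAGLN changed by −56.6. The mesenchymal genes thus did not move in 1 direction.

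The miR-200 family, which represses ZEB1 and ZEB2, comes from 2 loci. Near the annotated starts of MIR200C and MIR141 the rank went from 85.8 to 85.7, the same values for both. At MIR200A, MIR200B and MIR429 neither list had an interval within 2000 bp of the annotated start. These are the starts annotated for the microRNA genes, and the promoters of their primary transcripts were not examined. The absence of an interval there therefore does not show a closed promoter. MIR205HG, the host of another epithelial microRNA, went from 24.2 to 50.1.

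Markers of cell type were also counted. All 6 prostate luminal markers and all 6 neuroendocrine markers had a promoter interval in both lists, with 4 and 3 of 6 higher in rank in C4-2BER, where all coding genes had 77.7% in both lists and 60.6% higher. Presence alone did not separate the lines. KLK3, which encodes PSA, went from 80.9 to 42.3, and NCAM1, a neural adhesion molecule, from 43.8 to 77.6. Neither of 2 leukocyte markers had an interval. Of the fibroblast and endothelial markers, PDGFRA, DCN and CDH5 had one in both lists and LUM and PECAM1 in C4-2BER only, and their part in the mesenchymal values was not tested.

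Finally, motifs were matched within 100 bp of the summits of line-only distal intervals, on either strand, as a description of sequence. The E-box CAGGTG was found in 7 of 18 C4-2BER-only intervals (38.9%), against 16.5% of all C4-2BER-only distal intervals, and in 5 of 39 C4-2B-only ones (12.8%), against 19.1%. The 7 lay in the windows of ZEB2 and SNAI1 (2 each) and of CDH1, VIM and TWIST1 (1 each). The forkhead match TGTTTAC was found in 9 of 39 C4-2B-only intervals (23.1%), against 12.5%, and in 1 of 18 C4-2BER-only ones (5.56%), against 6.61%. Of the 9, 3 were at ZEB2, 2 at CDH2 and 1 each at EPCAM, VIM, ZEB1 and SNAI2. The AP-1 match TGACTCA was found in 5 of 39 (12.8%) and 2 of 18 (11.1%), against 8.23% and 6.66%. The E-box CAGCTG was found in 1 of 39 (2.56%) and 2 of 18 (11.1%), against 12.8% and 13.3%. The androgen response element, the half-sites AGAACA and TGTTCT with 3 bases between, was in no interval of the 10 windows and in 0.0914% of all C4-2B-only distal intervals. Of the 35116 RefSeq promoters of 300 bases, 20.6% held CAGGTG. These counts are small, and a match does not show that a factor was bound.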

How the data were processed

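ATAC-seq was done in C4-2B and C4-2BER, 2 libraries per line. Per the methods of the study, Bowtie2 aligned the trimmed reads to hg38, low-quality and duplicate reads were removed, both libraries of a line were pooled, and macs2 called peaks after each read was extended to 200 bp. The shift was printed as 100 with no minus sign, and the macs2 version was not stated. The deposited lists therefore give 1 value per interval and line. The authors' fold enrichment is a ratio, summit reads plus 1 over local background plus 1. The deposited −log10 p and q came from macs2, and the deposited summit offset, of another kind, is in bp.

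Summits of 1 interval were collapsed to that of highest −log10 p. Summit reads were recovered from fold and p, and a whole number solved both for 100% of summits (largest error in −log10 p 0.000259). The step was checked on simulated data. The lowest background, 2.24 and 1.87 reads per 200 bp, gave the depths. Weaker sites than 8 reads (C4-2B) and 7 reads (C4-2BER) are not in the lists. Genes came from GENCODE release 44. A pair was a C4-2B interval with the C4-2BER interval of largest overlap. Read ratios were divided by the depth ratio and carry exact conditional binomial intervals, and shares carry Wilson intervals, all at 95%. PCR reads are not independent molecules, so these cover counting error only. No test between lines was possible, and no p-value is given.

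The 10 genes and the further lists were chosen with earlier results of these data known, and some genes of the lists are not reported here by name. Single intervals were named by rule: the strongest promoter interval of each gene and list, the strongest line-only interval with a −log10 q of at least 10, and the pairs of highest and lowest ratio. Other intervals named, the breadth and the local background were chosen after their values were seen. Python 3.11.15, pandas 2.3.3, numpy 2.4.6 and scipy 1.17.1 were used. Alternatives were stricter lists, equal list lengths, equal depth, other overlap rules, windows, promoter widths and TSS choices, other ranks, a centred ratio, counting each summit and, added after seeing the data, pairing by the nearest summit.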

Additional observations from a re-analysis of the deposited data

How the results depend on the processing

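The 16 alternatives gave 92 values, of which 64 stayed within 1.5 times the main value with the same sign. No paired analysis was possible because each line has a single list from its pooled replicates, and leaving out a replicate could not be run for the same reason. A −log10 q of at least 10 moved most. It left 66 C4-2B and 47 C4-2BER intervals, 27 and 7 of them line-only, 2 genes with a promoter peak in C4-2BER only (CDH2 and ZEB2), 4 of 8 ranked genes of higher rank in C4-2BER with a median change of 0.738, a median log2 ratio of 0.0035 in place of −0.10, and 0 pairs 2-fold lower and 1 higher. At a −log10 q of at least 5, 13 C4-2BER-only intervals, a median log2 ratio of −0.041 and 6 pairs 2-fold lower were left. With equal numbers of top intervals there were 27 C4-2B-only intervals, 1 gene with a promoter peak in C4-2BER only (ZEB2) and a median rank change of 5.43. Requiring 50% reciprocal overlap gave 34 C4-2BER-only intervals and 2 pairs 2-fold higher, and summits within 200 bp gave 1. Pairing by the nearest summit, added after seeing the data, gave 9 pairs 2-fold lower and 4 higher. Windows of 10 kb either side held 62 C4-2B intervals, 24 of them line-only, a median log2 ratio of −0.0089 and 6 pairs 2-fold lower, and windows of 100 kb held 159 and 63. The median rank change was 12.7 by fold and 0.501 by summit reads. Centred on all shared pairs, the median log2 ratio was 0.034 in place of −0.10. The smaller counts follow from fewer intervals or pairs; the other causes were not tested. The rank change of CDH1 (0.288 to 19.0), FN1 (0.714 to 12.4), CDH2 (24.9 to 82.1) and ZEB2 (18.3 to 49.8) was positive in every alternative that ranked them, and that of the other 6 genes had the opposite sign in 1 or 2 of 8. Depth limits the weak promoters of CDH2 and ZEB2 in C4-2B, at 13 to 15 reads, where an unlisted site cannot be told from a closed one.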
